A study of Rattus norvegicus with 6 samples.

Results

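The genes described here encode enzymes that build chondroitin sulfate chains: Xylt1, Xylt2, Chst3, Chst11, Chst12, Chsy1, Chpf, Csgalnact1, Papss2 and Ugdh. They were chosen by name, whatever their level, and all 10 were found among 22573 gene rows. RNA was sequenced from nucleus pulposus cells, the cells of the soft core of the intervertebral disc, of Sprague Dawley rats. In the strain group (3 libraries) the cells had been stretched on a Flexcell FX-5000T device at 18% elongation and 0.2 Hz for 24 h, and the control group (3 libraries) carried the class label control. The same stretching text is attached to every sample, and only the class label marks the controls as unstretched. Whether replicates are separate animals or separate cultures is not labelled. The p-values therefore measure the spread between these libraries, which may be technical. Nor do the labels give an age, a genotype, a passage or a batch. The study's stated question concerns clock genes under strain. The genes here answer a different one, namely which steps of chain synthesis differed in transcript level.

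Chondroitin sulfate is a chain of alternating glucuronic acid and N-acetylgalactosamine carried by proteoglycans such as aggrecan, whose charged chains hold water in the disc core. Synthesis starts when a xylosyltransferase adds xylose to a serine of the core protein. A short linker is then completed, an N-acetylgalactosaminyltransferase adds the first sugar of the chain proper, and chondroitin synthase with its polymerizing factor extends it. Sulfotransferases then place sulfate on carbon 4 or carbon 6 of the N-acetylgalactosamine, taking it from the activated donor PAPS. UDP-sugars feed the steps that add a sugar.

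Values were read as the authors' FPKM, a measure scaled to transcript length. Levels of different genes were set side by side on that reading, which was not tested. The gene annotation behind the values is not known, so ratios, shares, sums and orders of different genes below hold only as far as that scaling does. Between 14378 and 14582 genes per library had a value above 0, and the 10 most abundant genes took 12.1% to 13.84% of the summed FPKM. Libraries correlated across genes at Pearson r = 0.9931 to 0.9966 within the strain group, 0.9952 to 0.996 within the control group and 0.9712 to 0.9854 between the groups. Of 19 nucleus pulposus markers in the files, 12 reached the filter (1 FPKM or more on average over the 6 libraries), among them Krt8, Pax1, Foxf1, Sox9 and Acan. Krt18, Krt19 and T stayed under 0.15 FPKM in every library, Shh and Noto were listed at 0, and Col2a1 was under the filter. Of the 12 tested, 7 were higher under strain, among them Lgals3 (3.19-fold), Pax1 (2.98-fold), Ncam1 (2.42-fold) and Sox9 (1.87-fold), and 2 were lower, Cdh2 and Slc2a1. Over all 19 markers the summed level was 411 to 455 FPKM in strain libraries and 373 to 441 FPKM in control libraries. By mean in strain and control libraries, its largest parts were Slc2a1 (104 and 195 FPKM), Lgals3 (135 and 42.4 FPKM) and Hif1a (71.6 and 76.9 FPKM). Markers of other cells, annulus and tendon aside, were mostly under the filter. This held for 10 of 14 macrophage, 10 of 11 endothelial, 6 of 6 erythroid, 6 of 8 neural and 6 of 8 muscle genes. The summed macrophage markers were 20.4 to 23.7 FPKM in strain libraries and 17.6 to 24.5 FPKM in control libraries, with Ptprc under 0.05 FPKM in all 6. Cd14 made up most of that sum and was not called, while the other 3 tested markers were. Cd68 had 0.633 ± 0.147 FPKM in strain libraries and 1.53 ± 0.42 FPKM in control libraries. Adgre1 had 1.31 ± 0.10 FPKM in strain libraries and 3.71 ± 1.92 FPKM in control libraries. Lyz2 was higher, with 3.30 ± 1.62 FPKM in strain libraries and 0.249 ± 0.142 FPKM in control libraries. The summed endothelial markers were 17.5 to 21.1 FPKM in strain libraries and 13.4 to 14.5 FPKM in control libraries, nearly all of it Eng, while Cdh5 was listed at 0. The summed neural markers were 38.7 to 48.4 FPKM in strain libraries and 30.7 to 32.7 FPKM in control libraries, nearly all of it S100b. The summed muscle markers were 4.21 to 9.02 FPKM in strain libraries and 3.49 to 6.31 FPKM in control libraries. The summed markers of annulus and tendon were 5653 to 6636 FPKM in strain libraries and 2503 to 3213 FPKM in control libraries, most of it Col1a1. Of 10 such markers 9 were tested, and 4 rose (Thbs4 9.07-fold, Col1a1 2.75-fold, Scx 2.44-fold and Mkx). Egr1 fell, and the other 4, Col1a2 among them, were not called. The part of these markers in the results below was not tested, and in bulk RNA fewer cells of a type cannot be told apart from less RNA per cell.

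Under strain 1 member rose (Xylt2) and 4 fell (Xylt1, Chst11, Papss2 and Ugdh) of the 9 that reached the filter, by limma on log2(FPKM + 1) at an adjusted p under 0.05 over all genes. Without control replicate 1 only 3 members were called (Xylt1, Chst11 and Ugdh), all lower, and the fall of Papss2 was lost in 7 of 13 alternatives. Csgalnact1, Chsy1, Chpf and Chst12 were not called, and Chst3 was under the filter. Differences between the steps of the pathway were not tested. Of all 10180 tested genes 35.4% were called, 16.4% higher and 19% lower, and the share among the 9 members was 55.6%, from which nothing particular to them is drawn. After rescaling each library to the same sum, the split over all genes was 2249 higher and 1671 lower, against 1672 higher and 1936 lower as deposited, and the members then had 2 rises and 3 falls. The groups did not overlap for 7 of 9 members, higher under strain in 3 and lower in 4. Over all tested genes 51.9% did not overlap, 24% with strain higher and 28% with strain lower. The median log2 fold change was 0.07 over the 9 members and -0.01 over all tested genes. The summed FPKM of the 10 members was 285 ± 13.0 in strain libraries and 315 ± 8.31 in control libraries (SD, n = 3 each).

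**Figure D1:**
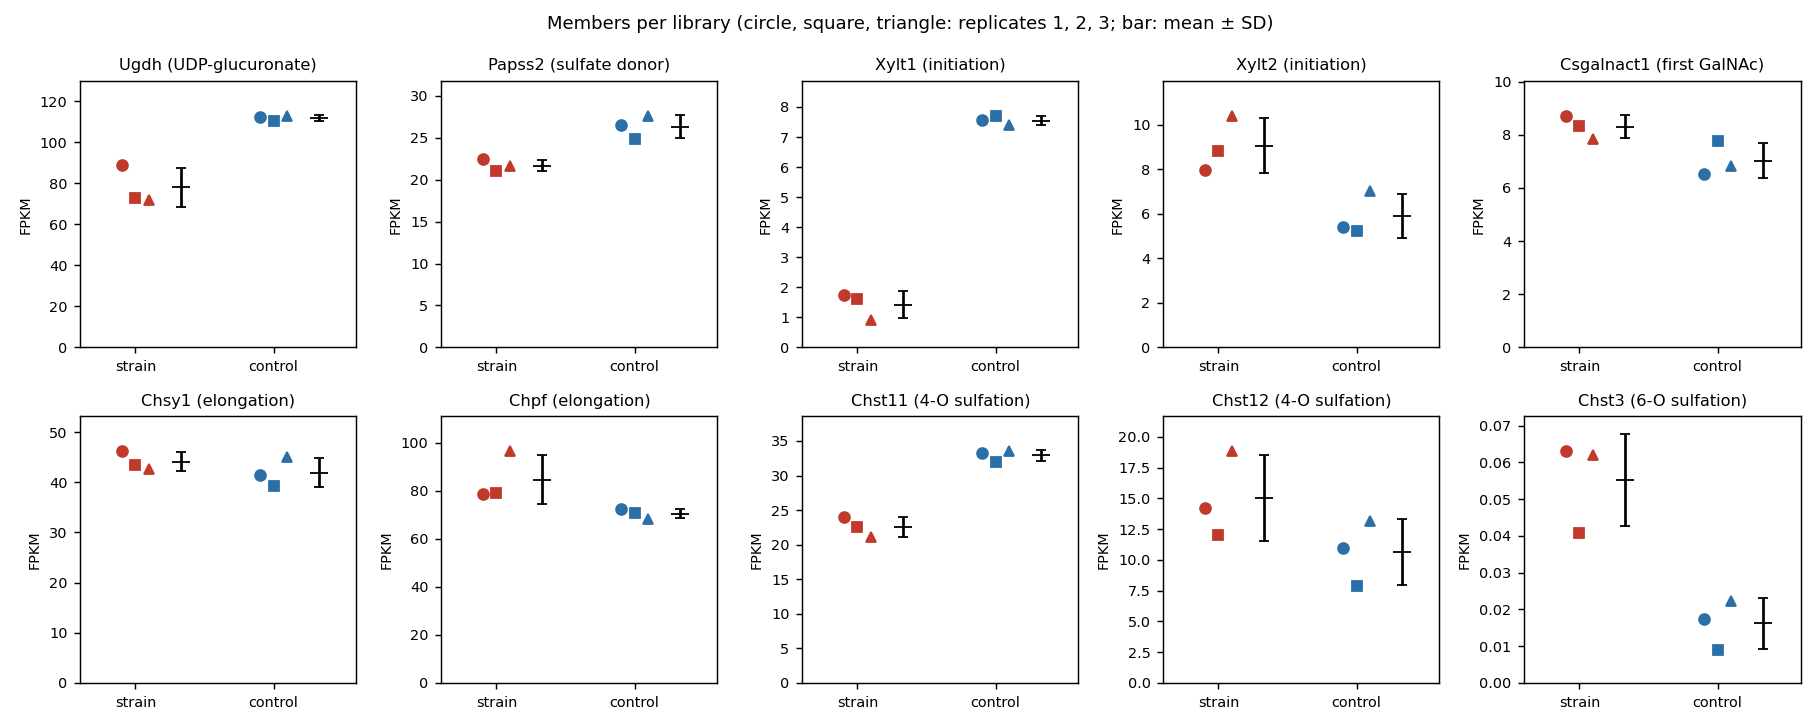
FPKM of each of the 10 members (y axis, starting at 0) in the 3 strain libraries (red) and the 3 control libraries (blue), with the mean and SD beside them. Xylt1 stood at 0.901 to 1.74 FPKM under strain and at 7.38 to 7.71 FPKM in controls, while Xylt2 lay higher under strain in all 3 libraries.

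Promoter sequence is shown for 4 members: Xylt1 and Xylt2, which moved in opposite directions, and Chst11 and Ugdh, whose falls were called under every alternative run. Each is the 250 bases before the transcript start used in the RefSeq promoter table (GRCr8), on the strand of the gene, and lies at chr1:181077972-181078221 on the plus strand for Xylt1, chr10:80116259-80116508 on the minus strand for Xylt2, chr7:22630442-22630691 on the minus strand for Chst11 and chr14:43202268-43202517 on the plus strand for Ugdh. Capitals mark matches, on either strand, to the E-box CACGTG, the AP-1 element TGANTCA, the cyclic AMP element TGACGTCA, the GC box GGGCGG or the kappa B consensus.
Xylt1: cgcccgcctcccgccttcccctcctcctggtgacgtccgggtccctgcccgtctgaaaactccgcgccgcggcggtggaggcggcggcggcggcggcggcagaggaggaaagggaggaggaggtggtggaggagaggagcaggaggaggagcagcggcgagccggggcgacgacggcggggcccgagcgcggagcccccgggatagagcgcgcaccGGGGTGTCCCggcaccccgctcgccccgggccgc
Xylt2: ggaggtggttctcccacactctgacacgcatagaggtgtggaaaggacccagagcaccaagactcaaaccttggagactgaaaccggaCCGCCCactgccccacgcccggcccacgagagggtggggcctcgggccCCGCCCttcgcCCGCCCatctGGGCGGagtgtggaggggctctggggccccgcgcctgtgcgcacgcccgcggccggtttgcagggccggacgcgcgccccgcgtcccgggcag
Chst11: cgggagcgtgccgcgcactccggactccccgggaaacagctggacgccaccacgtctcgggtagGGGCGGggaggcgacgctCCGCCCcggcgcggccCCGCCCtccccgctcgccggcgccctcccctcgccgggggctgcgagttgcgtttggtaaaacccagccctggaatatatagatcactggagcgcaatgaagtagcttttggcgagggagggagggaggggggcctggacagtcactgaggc
Ugdh: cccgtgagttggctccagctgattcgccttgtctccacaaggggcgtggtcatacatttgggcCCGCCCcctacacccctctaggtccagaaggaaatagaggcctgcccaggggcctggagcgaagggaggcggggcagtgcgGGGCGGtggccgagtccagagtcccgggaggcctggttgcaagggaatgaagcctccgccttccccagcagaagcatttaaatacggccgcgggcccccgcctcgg

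Promoters of 9 members were in that table, and 33469 promoters were searched in the same way. Xylt1 had 0 GC boxes and 1 kappa B match, and Xylt2 had 4 GC boxes and 0 kappa B matches. Chst11 held 3 GC boxes and Ugdh 2. Of the other members, Chsy1 had 6 GC boxes, Chpf 3, Papss2 2, Chst3 1 and Chst12 0, and Papss2 also had 1 kappa B match. Over all promoters 30.5% held a GC box and 6.33% a kappa B match. None of the 9 members had an E-box, the element bound by the clock factors CLOCK and BMAL1, in this window, and none had an AP-1 match. Over all promoters only 5.59% and 6.34% held those elements, so finding none among 9 shows no lack particular to the members. Chpf had 2 cyclic AMP elements, a motif in 1.59% of all promoters. The 9 windows were 54.0% to 84.8% G and C, Chst12 lowest and Chsy1 highest, against a median of 51.2% over all promoters. These are matches of letters and no measurement of binding.

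By FPKM, the genes of chain initiation changed places. Xylt1, a xylosyltransferase that commits a core protein to carry a chain, had 1.74, 1.62 and 0.901 FPKM in strain libraries and 7.55, 7.71 and 7.38 FPKM in control libraries. The groups lay far apart, and strain replicate 3 was the lowest. Xylt1 was 5.31-fold lower under strain by the ratio of means, with a log2 fold change of -1.84 ± 0.14 (SE; limma adjusted p = 5.4e-05). Only 1.1% of all tested genes had a lower log2 fold change. Xylt2, which encodes the other xylosyltransferase and catalyses the same reaction, had 7.99, 8.82 and 10.4 FPKM in strain libraries and 5.40, 5.24 and 7.03 FPKM in control libraries. Every strain library exceeded every control library, although control replicate 3 lay within 1 FPKM of strain replicate 1. Xylt2 was 1.54-fold higher (log2 fold change 0.55 ± 0.13, adjusted p = 0.012), and without control replicate 1 its adjusted p was 0.0518.

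Within each library the ratio of Xylt1 to Xylt2 was 0.218, 0.184 and 0.0865 under strain and 1.40, 1.47 and 1.05 in controls. Thus by FPKM Xylt1 was the lower of the pair in every strain library and the higher in every control library. The ratio differed by -3.09 on the log2 scale (exact two-sided permutation p = 0.10, the smallest that 3 against 3 libraries allow). Xylt1 made up 13.8% ± 5.19 of the summed xylosyltransferase FPKM in strain libraries and 56.3% ± 4.48 in control libraries (SD, n = 3 each). The sum of both genes was 10.5 ± 0.79 FPKM in strain libraries and 13.4 ± 0.85 FPKM in control libraries, a ratio of 0.781. Of the genes that complete the linker, 5 were tested and 1 rose, beside 16.4% called higher over all tested genes. B4galt7, which adds the galactose next to xylose, had 11.0 ± 1.45 FPKM in strain libraries and 7.49 ± 0.28 FPKM in control libraries (adjusted p = 0.0080). B3galt6, B3gat3, Fam20b and Pxylp1 were not called, and B3gat1 and B3gat2 were listed at 0.

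**Figure D2:**
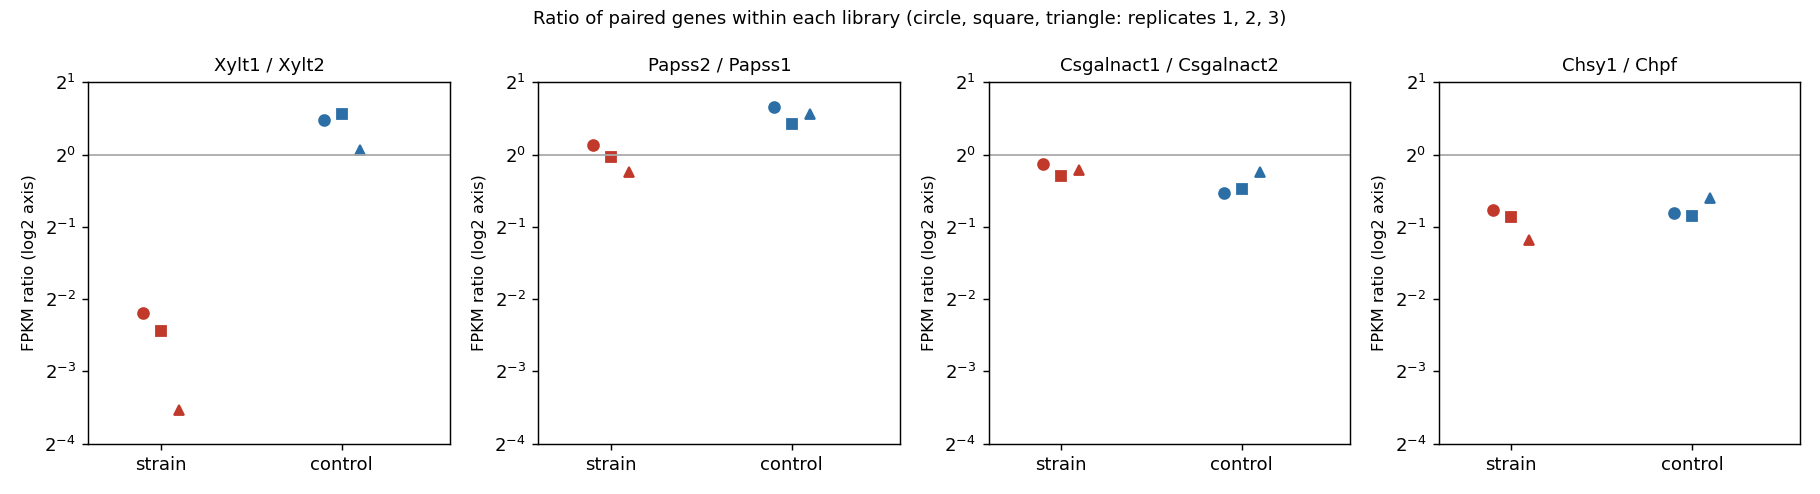
Ratio of the FPKM of 2 genes within each library (y axis, log2 scale), with strain libraries in red and control libraries in blue. Xylt1 over Xylt2 lay at 0.0865 to 0.218 under strain and at 1.05 to 1.47 in controls, Papss2 over Papss1 did not overlap between groups either, and the ratios of Csgalnact1 to Csgalnact2 and of Chsy1 to Chpf overlapped.

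None of the 3 members of chain assembly passed the test. Csgalnact1, which adds the first N-acetylgalactosamine and so directs the linker to chondroitin sulfate, had 8.71, 8.34 and 7.85 FPKM in strain libraries and 6.52, 7.76 and 6.82 FPKM in control libraries. The groups did not overlap but came within 0.1 FPKM of each other, with a log2 fold change of 0.21 (95% interval -0.01 to 0.44, adjusted p = 0.12). Chsy1, a chondroitin synthase that adds both sugars of the repeat, had 46.2, 43.4 and 42.7 FPKM in strain libraries and 41.4, 39.3 and 45.0 FPKM in control libraries. These groups overlapped, and the interval of the log2 fold change was -0.12 to 0.27. Chpf, the polymerizing factor that works with the synthase, had 78.6, 79.1 and 96.5 FPKM in strain libraries and 72.5, 70.8 and 68.5 FPKM in control libraries. Its strain libraries were all higher, strain replicate 3 by far the most, with a log2 fold change of 0.25 ± 0.10 (adjusted p = 0.081). It passed under both other scalings, at adjusted p = 0.0079 after quantile normalization and 0.013 after rescaling to equal sums. The ratio of Chsy1 to Chpf was 0.588, 0.549 and 0.442 under strain and 0.572, 0.555 and 0.657 in controls (exact two-sided permutation p = 0.40).

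The relatives of these genes that are not members were less even. Chsy3, another chondroitin synthase gene, had 28.1, 20.9 and 18.6 FPKM in strain libraries and 46.2, 51.6 and 44.5 FPKM in control libraries. It was 2.11-fold lower under strain (log2 fold change -1.06 ± 0.14, adjusted p = 0.00071), so that it stood well below Chsy1 under strain and near it in controls. Chpf2, a relative of Chpf, was higher, with 33.4 ± 2.92 FPKM in strain libraries and 25.3 ± 1.97 FPKM in control libraries (adjusted p = 0.015), a call lost without control replicate 1 (0.060) or control replicate 2 (0.054). Csgalnact2, the partner gene of Csgalnact1 for the same reaction, had 9.65 ± 0.59 FPKM in strain libraries and 9.44 ± 1.38 FPKM in control libraries and was not called. The ratio of Csgalnact1 to Csgalnact2 was 0.914, 0.811 and 0.860 under strain and 0.695, 0.716 and 0.843 in controls, and the groups overlapped (exact two-sided permutation p = 0.20).

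**Figure D3:**
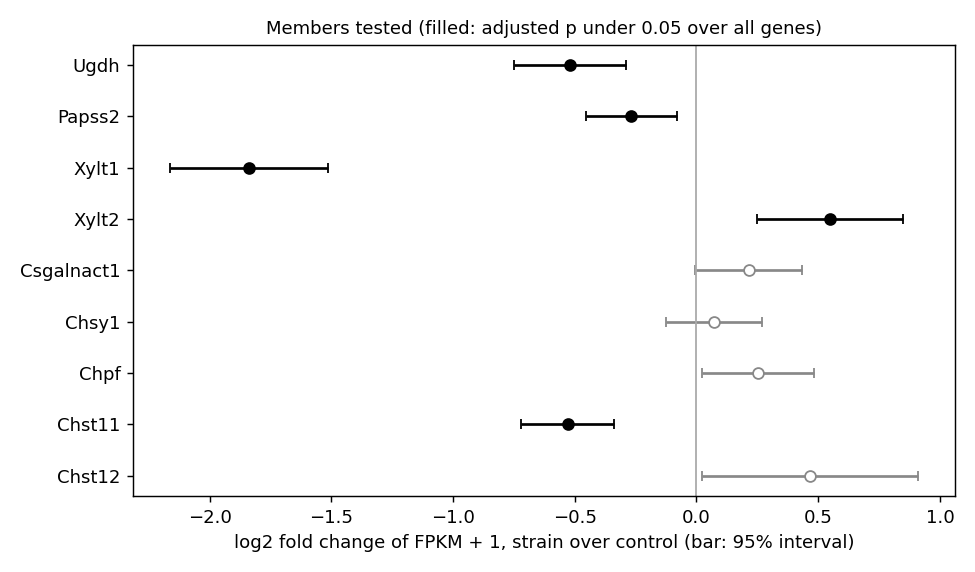
Log2 fold change of FPKM + 1, strain over control (x axis), for the 9 members that were tested, with 95% intervals; filled points passed an adjusted p of 0.05 over all genes. Xylt1 lay at -1.84, Chst11 and Ugdh near -0.53 and -0.52, Papss2 at -0.27 and Xylt2 at 0.55, and the other 4 members were not called.

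For sulfation of carbon 4, the estimates of the pair of member genes differed in sign, and only Chst11 was called. Chst11, the main chondroitin 4-O-sulfotransferase of cartilage in mice, had 24.0, 22.6 and 21.1 FPKM in strain libraries and 33.3, 32.0 and 33.5 FPKM in control libraries. The groups were well apart, with little spread within either. Chst11 was 1.46-fold lower under strain (log2 fold change -0.53 ± 0.08, limma adjusted p = 0.0017). Chst12, which encodes another 4-O-sulfotransferase, had 14.2, 12.0 and 18.8 FPKM in strain libraries and 11.0, 7.84 and 13.1 FPKM in control libraries. These groups overlapped, because control replicate 3 exceeded strain replicate 2, and Chst12 was not called (log2 fold change 0.47 ± 0.20, adjusted p = 0.095). Without control replicate 3 its adjusted p was 0.049. Chst12 supplied 37.3%, 34.7% and 47.2% of the summed FPKM of the pair in strain libraries and 24.8%, 19.7% and 28.1% in control libraries. The sum was 37.6 ± 2.71 FPKM in strain libraries and 43.6 ± 3.45 FPKM in control libraries (SD, n = 3 each).

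Sulfation of carbon 6 had almost no transcript in either group. Chst3, the chondroitin 6-O-sulfotransferase gene, had 0.0630, 0.0408 and 0.0619 FPKM in strain libraries and 0.0174, 0.00881 and 0.0223 FPKM in control libraries. The groups did not overlap, but every value was far under 1 FPKM, and no fold is given at this level. With no filter on low values, limma gave Chst3 an adjusted p = 0.087. The ratio of Chst3 to the sum of Chst11 and Chst12 was 0.00165, 0.00118 and 0.00155 under strain and 0.000394, 0.000221 and 0.000479 in controls (exact two-sided permutation p = 0.10), and it rests on those near-zero values. Chst7, another 6-O-sulfotransferase gene, reached at most 0.0961 FPKM in strain libraries and 0.0935 FPKM in control libraries. Of the sulfotransferase genes outside the members, Chst13 was also under the filter and Ust was not called. Chst15, which adds a further sulfate to units already sulfated on carbon 4, had 1.12 ± 0.11 FPKM in strain libraries and 1.86 ± 0.36 FPKM in control libraries (adjusted p = 0.024). That call was lost without strain replicate 2 (0.066), strain replicate 3 (0.059), control replicate 1 (0.094) or control replicate 3 (0.079).

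Of 3 genes that turn chondroitin into dermatan sulfate, 2 rose, beside 16.4% called higher over all tested genes. With only 3 genes, nothing particular to the list is drawn from that count. Chst14, the dermatan 4-O-sulfotransferase gene, had 15.9, 18.6 and 21.1 FPKM in strain libraries and 7.25, 9.74 and 7.84 FPKM in control libraries, with no overlap. It was 2.23-fold higher under strain (log2 fold change 1.07 ± 0.13, adjusted p = 0.00047). Dse, which encodes the epimerase that converts glucuronic to iduronic acid, had 13.9 ± 0.77 FPKM in strain libraries and 9.26 ± 1.99 FPKM in control libraries (adjusted p = 0.014). Its relative Dsel was not called. By mean level Chst14 thus stood above Chst12 under strain (18.5 and 15.0 FPKM) and below it in controls (8.28 and 10.6 FPKM), while the libraries of these genes overlapped within each group.

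The donor genes also moved in opposite directions, by small amounts. Papss2, a PAPS synthase gene whose loss impairs cartilage sulfation in mice, had 22.4, 21.0 and 21.6 FPKM in strain libraries and 26.5, 24.8 and 27.6 FPKM in control libraries. The groups did not overlap, and Papss2 was 1.21-fold lower under strain (log2 fold change -0.27 ± 0.08, adjusted p = 0.033). Among the alternatives, this call was lost without strain replicate 1 (0.061), strain replicate 2 (0.10), control replicate 1 (0.11) or control replicate 3 (0.12). It was also lost after quantile normalization (0.074), after rescaling to equal sums (0.086) and with the replicate block (0.067). Papss1, the other PAPS synthase gene, had 20.5, 21.5 and 25.6 FPKM in strain libraries and 16.8, 18.5 and 18.7 FPKM in control libraries. It was 1.25-fold higher (log2 fold change 0.30 ± 0.10, adjusted p = 0.048), but was called in only 5 of 13 alternatives. It was not called without strain replicate 2 (0.078), strain replicate 3 (0.070), control replicate 1 (0.16), control replicate 2 (0.086) or control replicate 3 (0.084). The ratio of Papss2 to Papss1 was 1.09, 0.977 and 0.843 under strain and 1.57, 1.34 and 1.48 in controls (exact two-sided permutation p = 0.10). The sum of both was 44.2 ± 2.56 FPKM in strain libraries and 44.3 ± 1.69 FPKM in control libraries (SD, n = 3 each). Of the sulfate and PAPS transporters and phosphatases, Slc26a2, Slc35b2, Slc35b3 and Bpnt1 were not called, Slc26a1 was under the filter and Impad1 was listed at 0.

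Several genes of UDP-sugar supply, Ugdh among them, were lower under strain. Ugdh, which oxidises UDP-glucose to UDP-glucuronic acid, had 89.0, 73.1 and 72.1 FPKM in strain libraries and 113, 110.2 and 113 FPKM in control libraries. The groups did not overlap, and strain replicate 1 lay nearest to the controls. Ugdh was 1.43-fold lower under strain (log2 fold change -0.52 ± 0.10, adjusted p = 0.0046). Of 13 further genes of UDP-sugar synthesis and transport tested, 4 fell and 1 rose. Over all tested genes 19% were called lower and 16.4% higher. Gfpt2, which starts the hexosamine pathway, had 1.54, 1.24 and 1.54 FPKM in strain libraries and 22.9, 9.96 and 17.5 FPKM in control libraries. It was 11.7-fold lower (adjusted p = 0.00012), and its relative Gfpt1 was not called (28.9 and 27.6 FPKM by mean in strain and control libraries). Uap1, which makes the UDP-N-acetylhexosamines, had 74.2, 43.6 and 43.8 FPKM in strain libraries and 216, 201 and 210.1 FPKM in control libraries, again with strain replicate 1 nearest to the controls (3.88-fold lower, adjusted p = 0.00012).

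Gnpnat1, an enzyme gene between Gfpt2 and Uap1 that was named after its values were seen, fell as well (adjusted p = 0.016). Slc35d1, a transporter of UDP-glucuronic acid and UDP-N-acetylgalactosamine, had 8.32 ± 1.05 FPKM in strain libraries and 12.7 ± 2.86 FPKM in control libraries (adjusted p = 0.024). Its call was lost without strain replicate 3 (0.072), control replicate 1 (0.057) or control replicate 2 (0.062), with no filter on low values (0.055) and after rescaling to equal sums (0.060). Slc35d2, a related nucleotide sugar transporter, rose to 2.80 ± 0.21 FPKM in strain libraries, against 1.59 ± 0.46 FPKM in control libraries (adjusted p = 0.013). Uxs1, which makes the UDP-xylose used by both xylosyltransferases, was not called (adjusted p = 0.056), with 25.2 to 27.7 FPKM in strain libraries and 29.7 to 33.3 FPKM in control libraries. Over the 6 lists of the chondroitin sulfate route, 31 tested genes were not members, of which 6 rose and 6 fell, and their median log2 fold change was 0.05. That is 12 of 31, near the 35.4% called over all genes.

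**Figure D4:**
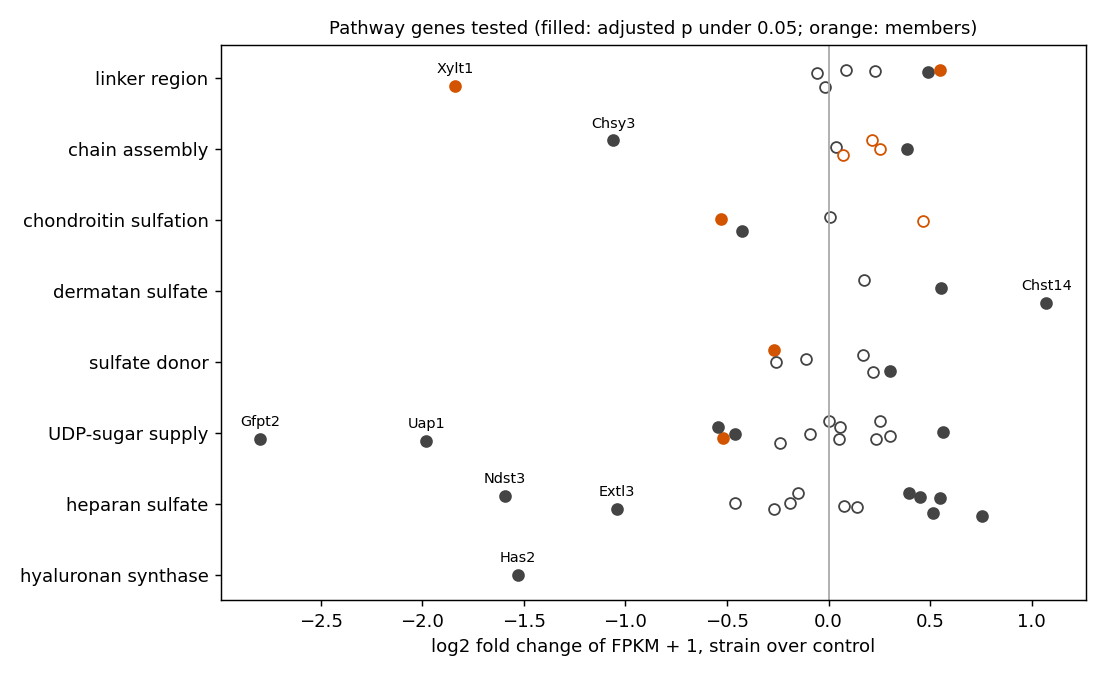
Log2 fold change of FPKM + 1, strain over control (x axis), of every tested gene in 8 pathway lists (y axis), with members in orange and filled points for an adjusted p under 0.05. On this scale, which understates changes of low genes, Gfpt2, Uap1 and Xylt1 lay at -2.80, -1.98 and -1.84, and Chst14 at 1.07.

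The order of the members by level differed between the groups because Xylt1 and Xylt2 exchanged places, as did Ugdh and Chpf. Xylt1 stood far below Csgalnact1 under strain and just above it in controls. Xylt2 stood above Csgalnact1 by mean under strain and below it in controls, with overlapping libraries in both groups. In strain libraries the order of mean FPKM was Chpf, Ugdh, Chsy1, Chst11, Papss2, Chst12, Xylt2, Csgalnact1, Xylt1 and Chst3. Neighbours whose strain libraries overlapped were Chpf and Ugdh, Chst11 and Papss2, and Xylt2 and Csgalnact1. In control libraries it was Ugdh, Chpf, Chsy1, Chst11, Papss2, Chst12, Xylt1, Csgalnact1, Xylt2 and Chst3. There the overlapping neighbours were Xylt1 and Csgalnact1, and Csgalnact1 and Xylt2. The libraries of Ugdh and Chpf thus overlapped under strain and were separate in controls. Ugdh, Chpf, Chsy1 and Chst11 each had a mean over the 6 libraries above that of at least 81.7% of tested genes.

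Genes that compete for the same sugars or linker were measured beside them. The counts of this and the next lists stand beside 16.4% called higher and 19% called lower over all tested genes, and nothing particular to a list is drawn from them. Of 13 tested heparan sulfate genes, 5 rose and 2 fell. Extl3, which encodes the transferase that directs the linker to heparan sulfate, had 15.7 ± 1.61 FPKM in strain libraries and 33.3 ± 3.26 FPKM in control libraries (adjusted p = 0.00020). Ndst3, an N-deacetylase and N-sulfotransferase gene, had 2.46 ± 0.54 FPKM in strain libraries and 9.36 ± 0.48 FPKM in control libraries. The 6-O-sulfotransferase genes of heparan sulfate, Hs6st1 and Hs6st2, rose 1.76-fold and 1.49-fold. Has2, which uses UDP-glucuronic acid to make hyaluronan, had 3.04 ± 0.79 FPKM in strain libraries and 10.5 ± 0.86 FPKM in control libraries (adjusted p = 0.00012), and Has1 and Has3 were under the filter. Of 4 tested keratan sulfate genes, 2 fell, the sulfotransferase Chst2 by 1.72-fold and the chain extender B3gnt2 by 1.44-fold.

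Enzymes that degrade these chains had 6 rises and 1 fall among 11 tested genes, where 35.4% of all tested genes were called in either direction. Hyal1, a lysosomal hyaluronidase gene, had 6.98 ± 0.74 FPKM in strain libraries and 2.78 ± 0.40 FPKM in control libraries (adjusted p = 0.00022). Hyal2, which encodes another hyaluronidase, rose 1.59-fold, a call lost without strain replicate 3 (adjusted p = 0.091), control replicate 1 (0.093) or control replicate 2 (0.082), and with no filter on low values (0.061). Sgsh, which encodes a lysosomal enzyme of heparan sulfate breakdown, rose 1.37-fold and lost its call without strain replicate 1 (0.071), control replicate 1 (0.071) or control replicate 2 (0.061). Cemip, which acts in hyaluronan breakdown, was 4.90-fold lower, with 25.1 ± 3.78 FPKM in strain libraries and 123 ± 22.2 FPKM in control libraries. Arsb and Galns, which remove sulfate from carbon 4 and from carbon 6 of the chain, were not called.

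Core proteins that carry such chains had 3 rises and 2 falls among 10 tested genes, again beside 35.4% called over all genes. Dcn, Bgn and Cspg4 rose 2.42-fold, 1.40-fold and 3.37-fold, and Bgn lost its call without control replicate 1 or control replicate 3 (adjusted p = 0.0504 and 0.0507). Thbd, which encodes thrombomodulin, a part-time carrier, had 1.85 ± 0.19 FPKM in strain libraries and 20.7 ± 4.33 FPKM in control libraries, and Srgn, named after its values were seen, fell too. Acan had 39.4, 41.2 and 35.1 FPKM in strain libraries and 24.2, 43.3 and 25.7 FPKM in control libraries and was not called. Its groups overlapped through control replicate 2. Vcan, the versican gene, was not called either.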

How the data were processed

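RNA sequencing of rat nucleus pulposus cells gave 1 file per library, with 1 value per gene symbol. FPKM, a read measure divided by transcript length and library size, was read as the unit of the deposited values: they were not whole numbers and summed to 309497 to 348238 per library. The submitters' processing notes name Cufflinks, Cuffdiff 2.2.1, HISAT2 2.0.4, DESeq and cutadapt 1.9.3 with no order, and hg19, a human build, as the only build. The symbols are rat ones (85.08% of 22573 rows used matched the GRCr8 gene table), so no coordinates of the files were used. Rows whose symbol had become a calendar date (27) and 1 malformed row were left out. Low values did not step by whole reads (at most 12.65% of low genes lay within 0.01 log2 units of the commonest ratio between a pair of libraries), so the depth is unknown and no interval for counting error is given.

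The 10180 genes that averaged 1 FPKM or more were fitted on log2(FPKM + 1) with limma 3.58.1 in R 4.3.3, using the trend and robust options. Log2 fold changes are on that scale, which understates changes of low genes, and folds are ratios of group means of FPKM. p-values were two-sided and adjusted by Benjamini-Hochberg over all these genes, with a threshold of 0.05. The fit was also run on simulated data. There far fewer genes changed than were called here, and by more than any tested member except Xylt1. It therefore says nothing on small changes such as that of Papss2. Ratios of 2 genes within a library were compared between groups by exact two-sided permutation tests over libraries. Alternatives were another pseudocount, other filters and scalings, plain moderation, a replicate block and leaving out each library. The members, gene lists and tests were chosen with earlier results of these data known. The rule for named genes took all 10 members and, of each other list, up to 4 called genes with the largest log2 fold change in size. Promoter sequences came from RefSeq (GRCr8).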

Additional observations from a re-analysis of the deposited data

How the results depend on the processing

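Without each library in turn, 2363 to 3572 genes were called over the whole table, lowest without control replicate 1, and 3 to 5 members, also fewest without that library. Xylt1, Chst11 and Ugdh kept their direction and their call under every alternative that tested them. With no library left out, the other settings called 5 members each except a filter at 5 FPKM, which left out Xylt1 and called 4. Under quantile normalization and under rescaling to equal sums Papss2 lost its call and Chpf gained one, and the cause was not tested. Whether the replicate numbers pair the libraries is not labelled. Deviations from the group means correlated at 0.033, 0.11 and -0.12 for same-numbered libraries, and not every library correlated best with its own number. Deviations of only 3 libraries per group cannot settle the pairing. With the number as a replicate block, 3116 genes and 5 members were called, with Chst12 (adjusted p = 0.013) in place of Papss2 (0.067). The log2 difference of the ratio of Xylt1 to Xylt2 ranged from -3.36 to -2.39 over its alternatives and that of Papss2 to Papss1 from -0.69 to -0.50. With 1 FPKM added to both sides, that of Chst3 to Chst11 plus Chst12 was 0.26, against 2.06 without it. Quantile normalization gave no value for that ratio, since Chst3 is under the filter. No result reversed. Depth is unknown, so nothing can be said on how precisely Chst3 was counted.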
